A study of Mus musculus with 12 samples.

Results

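Integrins are cell surface receptors made of 1 alpha and 1 beta chain that join the matrix outside a cell to its cytoskeleton. The pair of chains that sits in the hemidesmosome, the junction by which basal keratinocytes hold on to the basement membrane, is left aside here. The 10 genes described are the other integrin chains chosen for the skin, Itga2, Itga3, Itga5, Itga8, Itga9, Itgav, Itgb1, Itgb5, Itgb6 and Itgb8, out of 34763 gene names on the array, where 17 further integrin genes serve for comparison. They were taken by gene name among the probes that are not controls, 13 probes in all, and where a gene had more than 1 probe the one with the highest mean level was used.

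The beta chain of Itgb1 pairs with most alpha chains of the set: that of Itga2 makes a collagen receptor, that of Itga3 a laminin receptor, that of Itga5 the classical fibronectin receptor, that of Itga8 a receptor for nephronectin and other matrix proteins that carry the RGD tripeptide, and that of Itga9 a receptor for tenascin. The alpha chain of Itgav pairs with the beta chains of Itgb5, Itgb6 and Itgb8, and the pairs with Itgb6 and Itgb8 are known for releasing active TGF-beta from its latent complex. In skin, nephronectin laid down by bulge stem cells is known to anchor the arrector pili muscle through the alpha chain of Itga8.

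Hair follicle stem cells (HFSCs) were sorted as CD34 high, ITGA6 high and SCA1 negative, interfollicular epidermis (IFE) as ITGA6 high and SCA1 high, and total epidermal cells were taken beside them. HFSCs, total epidermis and IFE of wild-type C57BL/6 mice were profiled at 8 weeks (young) and at 22 months or more (aged). HFSCs of 12-week-old tamoxifen-treated control mice and of 12-week-old mice labelled as a Col17a1 conditional knockout (cKO, K14 promoter) were profiled too. Tamoxifen was given at 2 mg for 5 days to both, and no strain is given for the cKO mice. Each of the 4 kinds of HFSC was profiled without plucking and 3 days after hair was plucked by hand. Each of these 12 groups has 1 array of 1-colour intensities, so every test below uses groups of arrays as replicates of a factor, and nothing says how many mice an array stands for. P-values therefore measure only the spread between these arrays, which may be technical.

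A level is the log2 processed signal of a probe minus the log2 75th percentile of its array, so 0 is the brightness of a spot at that percentile, and levels of different probes are not compared with each other. A level counts as measured where the scanner software called the spot well above background, and as a bound elsewhere. Between 49.7% and 65.0% of the spots other than controls were well above background on an array. The 2 arrays least like the rest were the unplucked control and cKO arrays, with a median correlation of 0.888 and 0.893 to the other arrays. Cd34, the sorting marker, stood between 3.62 and 6.68 on the 8 HFSC arrays and between -5.98 and 0.76 on the 4 epidermal arrays. Ly6a, which encodes SCA1, stood between -3.69 and 0.30 on the HFSC arrays and between 3.33 and 4.37 on the epidermal ones. Col17a1, the gene the cKO labels name as deleted, had a level of 7.31 in the unplucked control and 7.005 in the unplucked cKO array, and of 6.22 and 5.79 after plucking. Which part of the gene is deleted is not given, so whether the probe can report the deletion is not known, and the libraries are called by their labels.

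All young and aged arrays lie on slide 1, young in row 1 and aged in row 2, and columns 1 to 4 hold HFSCs, HFSCs after plucking, total epidermal cells and IFE in that order. The control and cKO arrays lie in row 2 of slide 2, control in columns 1 and 2 and cKO in columns 3 and 4. Age and slide row, cell population and slide column, and control against young and slide cannot be told apart. The same holds for cKO against control and slide column. In bulk samples of this kind, fewer cells of a type and less RNA per cell cannot be told apart either.

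Sequences are shown for the genes on which the results turn. The first 3 are probes, from 5′ to 3′, because each reads the cytoplasmic tail, the part of an integrin that binds the cytoskeletal adaptors. The Itga2 probe lies at chr13:115626714-115626773 (mm9, minus strand), and its capitals, bases 4 to 18, encode the GFFKR motif next to the membrane. The second Itgb1 probe spans chr8:131250081-131255976 (mm9, plus strand), a stretch longer than its 60 bases and so over an exon junction, and its capitals at bases 13 to 24 and 49 to 60 encode the 2 NPxY motifs that talin and kindlin bind. The Itgb6 probe used spans chr2:60438632-60443247 (mm9, minus strand), also over an exon junction, and holds neither motif whole.
Itga2: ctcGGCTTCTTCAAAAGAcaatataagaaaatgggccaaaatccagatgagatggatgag
Itgb1: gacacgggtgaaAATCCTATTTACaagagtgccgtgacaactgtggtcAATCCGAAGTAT
Itgb6: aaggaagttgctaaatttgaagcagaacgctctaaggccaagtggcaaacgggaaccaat

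The next 3 are the 250 bases before the RefSeq start of the genes that were lower in the epidermal populations, from RefSeq on GRCm38.p6, a later build than that of the probes. They lie at chr15:103366792-103367041 for Itga5, chr2:60722604-60722853 for the upstream start of Itgb6 and chr12:119238277-119238526 for Itgb8, all on the minus strand. Capitals mark matches, on either strand, to 7 motifs searched: AP-1 as TGANTCA, TEAD as GGAATG, LHX as TAATTA, TCF as CTTTGA, SOX as ATTGTT, NFAT as GGAAAA and SP1 as GGGCGG.
Itga5: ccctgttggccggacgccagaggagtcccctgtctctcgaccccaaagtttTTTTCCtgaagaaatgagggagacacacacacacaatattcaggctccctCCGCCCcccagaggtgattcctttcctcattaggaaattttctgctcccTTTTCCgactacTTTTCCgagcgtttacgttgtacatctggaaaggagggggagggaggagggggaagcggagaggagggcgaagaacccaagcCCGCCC
Itgb6: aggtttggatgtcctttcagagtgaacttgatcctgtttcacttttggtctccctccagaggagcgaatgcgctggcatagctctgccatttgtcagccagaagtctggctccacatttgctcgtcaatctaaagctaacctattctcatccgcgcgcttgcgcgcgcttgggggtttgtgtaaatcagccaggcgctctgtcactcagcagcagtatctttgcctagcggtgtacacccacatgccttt
Itgb8: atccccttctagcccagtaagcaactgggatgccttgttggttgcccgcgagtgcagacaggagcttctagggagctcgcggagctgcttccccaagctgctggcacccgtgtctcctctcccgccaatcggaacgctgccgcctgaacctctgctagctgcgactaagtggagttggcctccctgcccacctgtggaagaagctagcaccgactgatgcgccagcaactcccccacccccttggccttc

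The Itga5 window held 3 NFAT matches and 2 SP1 matches, all as the reverse complement. The windows of Itgb6 and Itgb8 held none of the 7. Among 32817 promoter windows of the same length, 20.4% held the NFAT motif, 32.7% SP1, 13.8% TCF, 12.6% TEAD, 9.42% SOX, 6.75% AP-1 and 4.85% LHX. A match is a run of letters and not a bound site, and a window without one says nothing about the factor.

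Of the 10 integrins, 6 were well above background on all 12 arrays, namely Itga2, Itga3, Itgav, Itgb1, Itgb5 and Itgb6. Itgb8 was so on 10 arrays, Itga5 on 4, Itga8 on 2 and Itga9 on 0. The Itga9 probe therefore gave no level to compare. Itgav and Itgb1 varied least: their levels spanned 1.36 and 1.38 over the 12 arrays, a smaller span than that of most genes (18.4% and 19.1% of the 26450 genes measured on 2 or more arrays had a smaller one, with a median span of 2.29). The second Itgb1 probe, whose sequence is shown above, read between 1.70 and 2.87 and correlated with the used probe at 0.47. Itgb8 spanned 6.00 and Itgb6 4.44, wider than 95.5% and 85.2% of these genes.

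**Figure D1:**
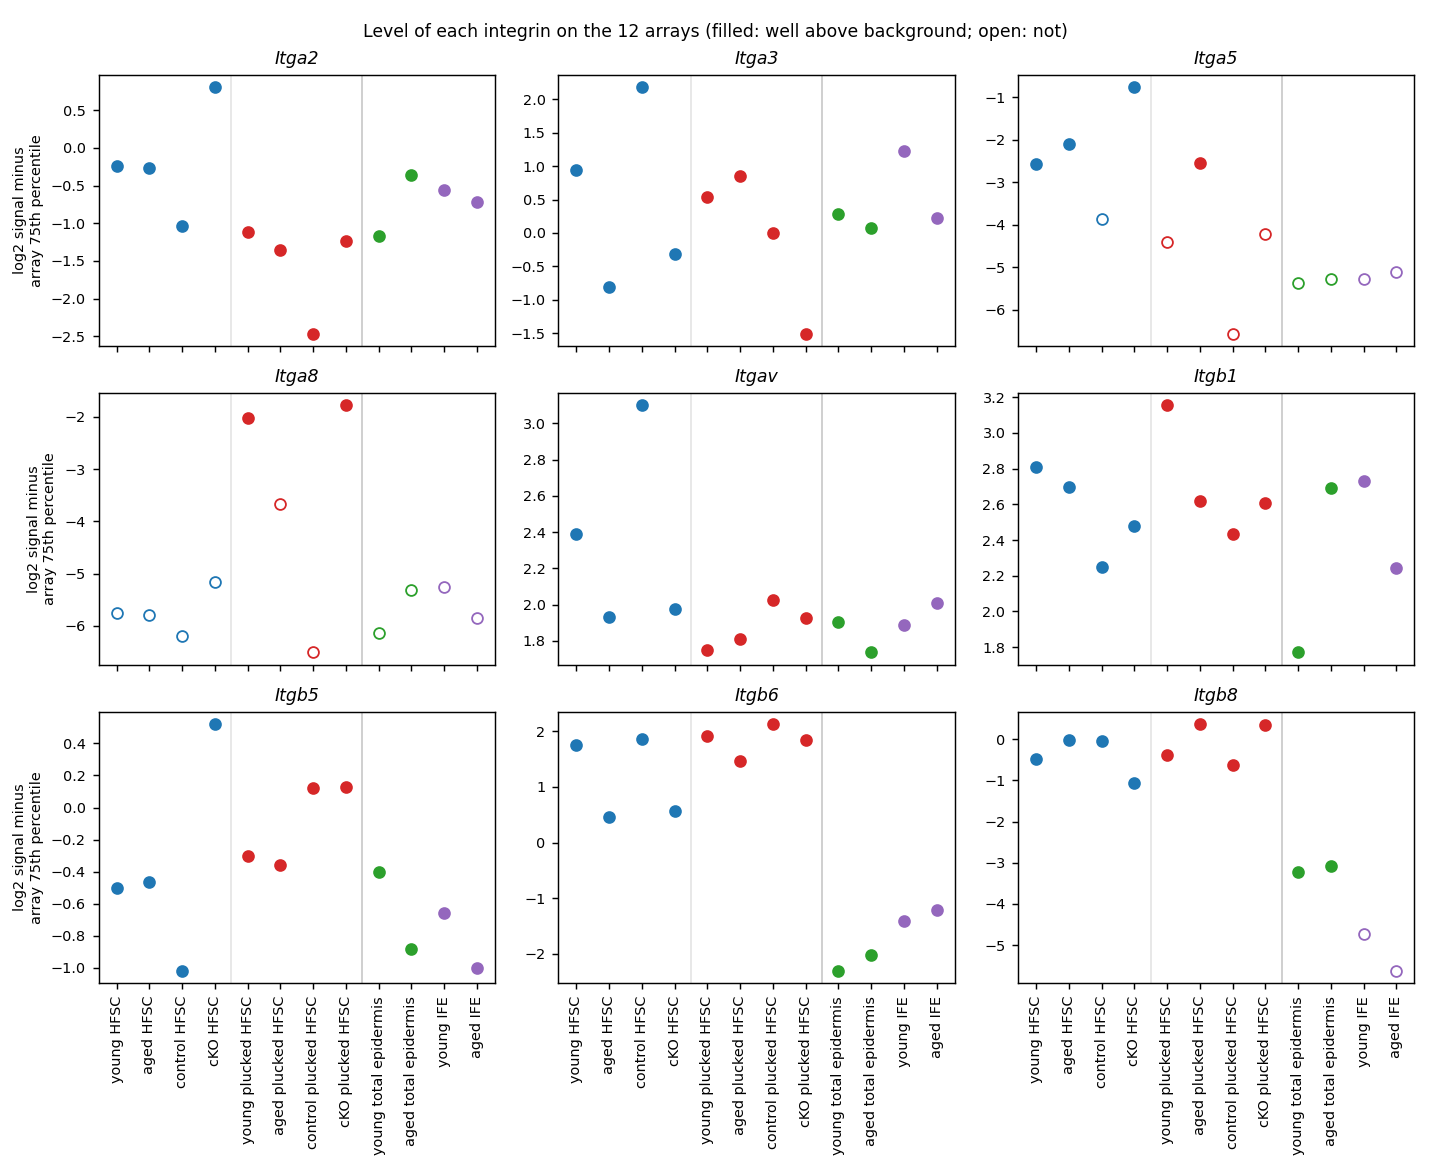
Level of 9 integrins (log2 signal minus the array's 75th percentile, y axis, with its own range in each panel) on the 12 arrays (x axis; blue unplucked HFSC, red plucked HFSC, green total epidermis, purple IFE). At the probes used, Itgb6 and Itgb8 are higher on all 8 HFSC arrays than on the 4 epidermal arrays, Itga5 is well above background on 4 HFSC arrays, and open points were not well above background.

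Members passed the test between HFSCs and the epidermal populations and in no other comparison. Itgb8 was 7.49-fold lower in total epidermis than in HFSCs and at least 11.8-fold lower in IFE. Itgb6 was 9.64-fold lower in total epidermis. Itga5 was at least 3.93-fold lower in total epidermis and at least 2.77-fold lower in IFE, but it entered the test only because both HFSC arrays measured it, so its call supports nothing beyond these levels. Itga2, Itga3, Itgav, Itgb1 and Itgb5 passed the test in neither comparison. Here and below the test is limma's moderated test over every gene measured on 2 or more of the fitted arrays, and a call needs an adjusted p under 0.05, and populations were compared on the 6 arrays of unplucked wild-type mice without tamoxifen, adjusting for age. An "at least" fold sets the mean of the brighter group against the lowest signal called well above background on each dim array, or the dim probe's own signal where that is higher.

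Itgb8, a partner of the Itgav chain, had a level of -0.48 in young and -0.01 in aged HFSCs, of -3.23 in young and -3.07 in aged total epidermis, and of -4.74 in young and -5.63 in aged IFE, where it was not well above background. HFSCs stood above total epidermis and total epidermis above IFE in both ages. The log2 difference was -2.91 ± 0.42 (SE, n = 2 pairs, adjusted p = 0.0421) in total epidermis and -4.94 ± 0.42 (adjusted p = 0.0134) in IFE against HFSCs. The 6 HFSC arrays that the fit did not use, those of plucked, control and cKO cells, read between -1.07 and 0.37, all above the 4 epidermal arrays.

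Itgb6, the other TGF-beta-activating beta chain, stood at 1.76 in young and 0.45 in aged HFSCs. In total epidermis it stood at -2.31 (young) and -2.02 (aged), and in IFE at -1.41 (young) and -1.21 (aged). At this probe no epidermal array reached the lowest HFSC array. The difference was -3.27 ± 0.49 (SE, n = 2 pairs, adjusted p = 0.0451) in total epidermis. In IFE it was -2.41 ± 0.49 (adjusted p = 0.0759), which missed the threshold. The fold lower than HFSCs was 5.33 in IFE. Without the filter on dim genes, the differences in total epidermis missed the threshold for both Itgb6 (adjusted p = 0.0758) and Itgb8 (adjusted p = 0.0745). At the second probe of Itgb6 the populations overlapped: young IFE, at -0.52, was above the unplucked cKO array, at -0.81, and above the unplucked control array, at -4.79 and not well above background, where the used probe read 1.86. The 2 probes correlated at 0.47 over the 12 arrays.

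Itga5, the alpha chain of the fibronectin receptor, read -2.58 in young and -2.10 in aged HFSCs, both well above background, and between -5.38 and -5.11 on the 4 epidermal arrays, none of them well above it. The difference was -2.98 ± 0.28 (SE, n = 2 pairs, adjusted p = 0.0234) in total epidermis and -2.85 ± 0.28 (adjusted p = 0.0166) in IFE. With normexp background correction and quantile normalization it was -0.58 (adjusted p = 0.121) and -0.46 (adjusted p = 0.194). Of 6 fibroblast markers 3 were tested. Col1a2 and Col1a1 were called lower in both epidermal populations, Col1a1 having entered only through its HFSC arrays, and Col3a1 differed by -0.94 in IFE and 0.22 in total epidermis without passing. The list's summed level, the log2 of the sum of its signals, lay between 1.05 and 3.20 on the HFSC arrays and between -1.37 and -0.78 on the epidermal arrays. The part of those cells in the Itga5 difference was not tested.

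**Figure D2:**
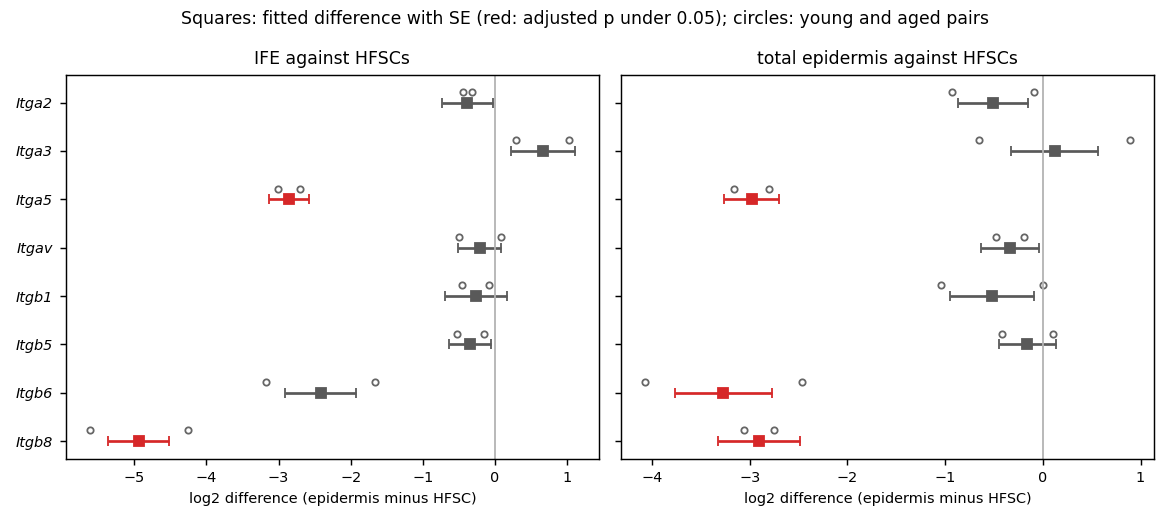
Log2 difference of 8 integrins in IFE (left) and in total epidermis (right) against HFSCs: squares are fitted differences with their SE, red where the adjusted p is under 0.05, and open circles the young and aged pairs of arrays. Itga5 and Itgb8 lie to the left in both panels, Itgb6 in both but called only in total epidermis, and Itga5, and Itgb8 in IFE, rest on dim epidermal signals.

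The other members differed less between populations. Itga3, which was the only one of the 8 tested to be higher in both epidermal populations, differed by 0.66 ± 0.44 (SE, adjusted p = 0.486) in IFE and 0.12 ± 0.44 (adjusted p = 0.911) in total epidermis, and the second value turned to -0.07 with the array median as the scale. Itgb1 differed by -0.27 ± 0.43 and -0.52 ± 0.43. Itgav differed by -0.21 ± 0.30 and -0.34 ± 0.30. Itga2 differed by -0.38 ± 0.36 and -0.51 ± 0.36, and Itgb5 by -0.34 ± 0.29 and -0.16 ± 0.29 (adjusted p between 0.492 and 0.810 for these 4 genes). Over the 6 members measured on all 6 arrays the median difference was -0.30 in IFE and -0.42 in total epidermis, beside 0.08 and 0.03 over all genes measured so.

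In all, 2 of 8 members were called lower in IFE and 3 of 8 in total epidermis, where 2.64% and 2.02% of all 23973 genes were called lower. Without Itga5, which entered only through HFSCs, the counts were 1 of 7 and 2 of 7. No member was called higher. Over all 12 arrays, 2 of 9 members, Itgb6 and Itgb8 at the probes used, were higher on all 8 HFSC arrays than on all 4 epidermal arrays, as were 4.19% of genes. Between IFE and total epidermis no member was called, and 0% of genes were (0 of 23973 by limma, with 979 at an unadjusted p under 0.05). The smallest adjusted p was that of Itgb8, at -2.03 ± 0.42 (SE, n = 2 pairs, adjusted p = 0.571), and it was the single member with an unadjusted p under 0.05.

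Among the 17 other integrins, 13 were tested. The single one called was Itgae, the alpha chain by which skin T cells hold on to E-cadherin, which was at least 2.87-fold higher in total epidermis than in HFSCs (3.13 ± 0.42, SE, adjusted p = 0.0382). It entered the test only through the total epidermis arrays, where it read -2.63 in young and -1.76 in aged mice, and it was not well above background in unplucked young (-5.48) or aged (-5.18) HFSCs. On the control and cKO HFSC arrays, which that fit did not use, it was well above background at -3.19 and -2.15 without plucking and at -3.33 and -3.16 after it, so the HFSC and total epidermis arrays overlapped. The T cell genes Cd3e and Cd3g rose in the same comparison, by 2.85 ± 0.27 (adjusted p = 0.0239) and 5.93 ± 0.27 (adjusted p = 0.0196), Cd3g having entered only through total epidermis. The summed level of the 4 T cell markers on the array was between 3.06 and 3.91 in total epidermis and between -0.43 and 1.67 on the HFSC arrays, lowest on the unplucked cKO array, where Itgae was highest among HFSCs.

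Of 23 genes of integrin ligands, 19 were tested. Of these, 8 were called lower in IFE and 8 in total epidermis, 0 were called higher, and 11 were not called in each. Of all genes, 2.64% were called lower in IFE and 2.02% in total epidermis. In both comparisons 2 of the 8, Tnc and Col1a1, entered only through HFSCs. Over the 14 ligands measured on all 6 arrays the median difference was -1.73 in IFE and -1.86 in total epidermis. Over all genes measured so it was 0.08 and 0.03. Tnc, which encodes the ligand tenascin-C, was at least 8.29-fold lower in IFE and at least 11.8-fold lower in total epidermis. Egfl6, an RGD-bearing basement membrane protein of the bulge, differed by -3.44 ± 0.26 (SE, adjusted p = 0.0117) in IFE and -4.18 ± 0.26 (adjusted p = 0.0196) in total epidermis.

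Postn, which encodes periostin, a ligand of the Itgav receptors, was 59.0-fold lower in IFE and 33.4-fold lower in total epidermis. Ccn2, a secreted matricellular protein and a well-known target of YAP, was 196-fold and 73.9-fold lower. Thbs1, Col1a1 and Col1a2 were also called in both, Tgfb3 in IFE and Col4a1 in total epidermis. Col1a1 and Col1a2 are fibroblast markers as well, and the list was chosen with results of these data known, so its counts are a description.

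Of 31 genes of adaptors and partners, only some of which link the integrin tails to actin, 28 were tested. Of these, 3 were called lower in both epidermal populations, with 0 called higher. Of all genes, 2.64% were called lower in IFE and 2.02% in total epidermis. The 3 called were Dab2, an endocytic adaptor of integrin beta tails, and Tns1 and Tns3, which encode tensins. Dab2 differed by -8.10 ± 0.85 (SE, adjusted p = 0.0189) in IFE and -5.91 ± 0.85 (adjusted p = 0.0416) in total epidermis. The IFE value includes a level of -5.41 in young IFE that was not well above background, beside -1.89 in aged IFE. Tns1 differed by -1.70 ± 0.27 (adjusted p = 0.0442) and -1.93 ± 0.27 (adjusted p = 0.0399). Over the 26 measured on all 6 arrays the median difference was -0.25 in IFE and -0.41 in total epidermis. Over all genes measured so it was 0.08 and 0.03.

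**Figure D3:**
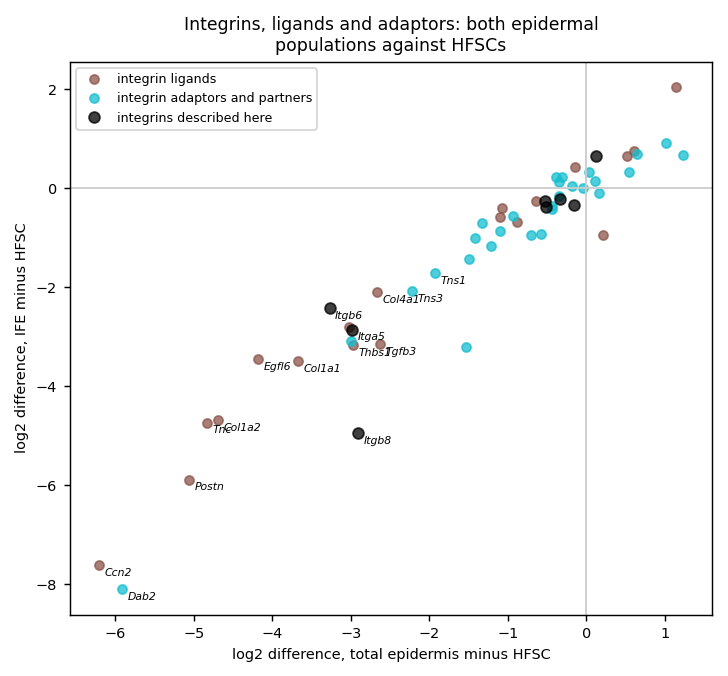
Log2 difference against HFSCs in total epidermis (x axis) and in IFE (y axis) of the integrins (black), their ligands (brown) and their adaptors and partners (cyan), one point per gene, with genes called in either comparison named. Both axes share the HFSC arrays, and Ccn2, Dab2 and Postn lie farthest down and to the left. Dab2 was not well above background in young IFE.

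After plucking, which starts a new round of hair growth, no member passed the test. Across all genes 0.499% of 25438 were called, 100 higher and 27 lower, and 4464 had an unadjusted p under 0.05. Of the 9 members tested, Itga2 and Itga5 had an unadjusted p under 0.05. Itga8 did as well, but it entered the test only through 2 plucked arrays and its p is not counted. The median difference over the members was 0.15, beside -0.06 over all genes, and it was -0.17 without the young pair and -0.17 without the cKO pair.

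Itga2, the collagen-binding alpha chain, had a level of -0.24 in young, -0.27 in aged, -1.04 in control and 0.81 in cKO cells of unplucked skin. After plucking it read -1.12, -1.35, -2.47 and -1.24 in the same order. It was lower in 4 of 4 pairs, and every plucked array was below every unplucked array. Plucked minus unplucked, it came to -1.36 ± 0.29 (SE, n = 4 pairs, adjusted p = 0.119), or a 2.56-fold lower mean, and missed the threshold. In the fit limited to genes well above background on every array its adjusted p was 0.0495.

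Without plucking, Itga5 read -2.58, -2.10, -3.86 and -0.75 in young, aged, control and cKO cells. The plucked arrays read -4.42, -2.55, -6.57 and -4.22 in that order. The control value without plucking and the young, control and cKO values after plucking were not well above background. The difference was -2.11 ± 0.54 (SE, n = 4 pairs, adjusted p = 0.155), and the cKO pair differed at least 11.04-fold. Summed fibroblast markers were between 2.09 and 3.20 on the unplucked and between 1.05 and 1.30 on the plucked arrays, but of the 4 markers tested 2 differed upwards and 2 downwards and 0 were called, with Col1a2 at -1.90 and Col1a1 at 0.38. The sums were again mostly Col1a2, and the part of fibroblasts was not tested.

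Itga8, the nephronectin receptor chain, was not well above background on any unplucked HFSC array or on any epidermal array. It was measured after plucking in young cells, at -2.03, and in cKO cells, at -1.78, and was not well above background in plucked aged cells, at -3.67, or plucked control cells, at -6.50. The young pair differed at least 3.17-fold and the cKO pair at least 2.33-fold, while the fit gave 2.22 ± 0.73 (SE, n = 4 pairs, adjusted p = 0.222). Since no unplucked array and only 2 of 4 plucked arrays measured it, no fold or bound is given for the groups. The 6 smooth muscle and pericyte markers had a summed level of 1.42 to 2.08 without plucking and 1.60 to 2.22 after it.

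At the probe used, Itgb6 was higher in 4 of 4 pairs after plucking, by 0.16 in young, 1.02 in aged, 0.27 in control and 1.28 in cKO cells, with a fitted difference of 0.68 ± 0.30 (SE, adjusted p = 0.330). Its plucked levels lay between 1.47 and 2.13. At the second probe the young pair went from 1.85 to 1.20, so the 4 of 4 did not hold there. Itgb1 differed by 0.15 ± 0.23, Itgav by -0.47 ± 0.29, Itgb5 by 0.26 ± 0.33, Itgb8 by 0.32 ± 0.38 and Itga3 by -0.53 ± 0.66 (adjusted p between 0.450 and 0.769). For Itga3 the aged pair differed by 1.67, and the young, control and cKO pairs by -0.40, -2.19 and -1.19.

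**Figure D4:**
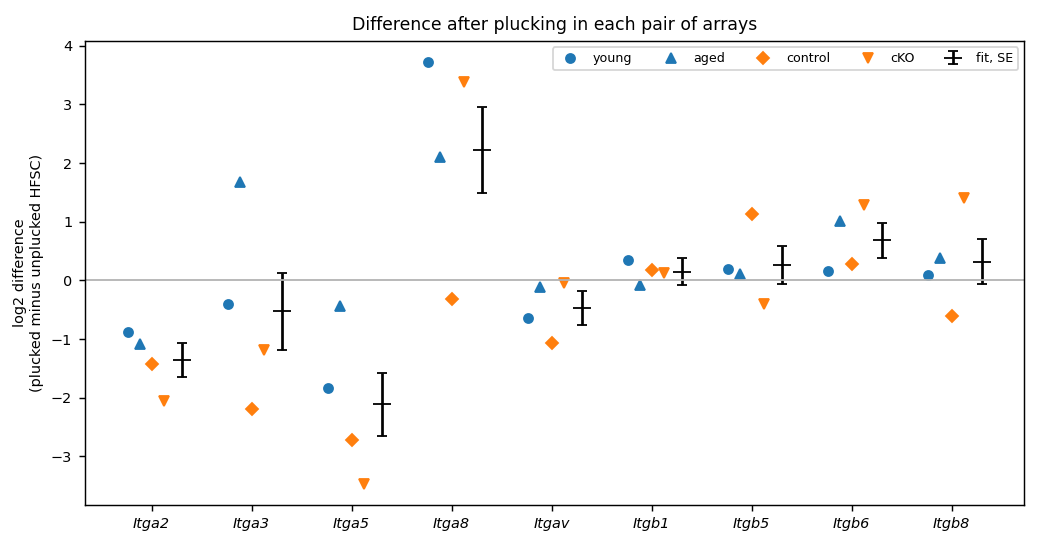
Log2 difference between plucked and unplucked HFSCs for 9 integrins (x axis) in the young, aged, control and cKO pairs of arrays, with the fitted difference and its SE in black (blue slide 1, orange slide 2). Itga2 lies below 0 and Itgb6, at the probe used, above 0 in all 4 pairs, and values of Itga5 and Itga8 include arrays not well above background.

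Between single plucked and unplucked arrays, 2 of 9 members measured in the young pair differed by 2-fold or more, and 26% of genes did. In the aged pair it was 3 of 8 members and 32.5% of genes, in the control pair 4 of 7 and 41.3%, and in the cKO pair 6 of 9 and 39.4%. Only Itga2 of the members was lower on all 4 plucked than on all 4 unplucked arrays, as were 4.42% of genes.

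Among ligands and adaptors, 1 of 19 and 1 of 29 genes tested passed the threshold after plucking, as did 0.499% of all genes. Ccn2 fell by 2.58 ± 0.29 on the log2 scale (SE, n = 4 pairs, adjusted p = 0.0482) and Dab2 by 2.51 ± 0.23 (adjusted p = 0.0448). Of the 13 other integrins tested, 5 were higher and 8 lower after plucking, and 0 were called. The difference of Itgb4, the hemidesmosomal beta chain, was -0.93 ± 0.28 (adjusted p = 0.198). Itga4 read between -1.39 and 0.16 on the unplucked arrays. On the plucked arrays, of which 2 were well above background, it read between -4.76 and -3.45. All 6 cell cycle markers were higher after plucking, and 3 of them, Bub1, Mki67 and Tpx2, passed the threshold. The list's summed level lay between 0.34 and 2.71 without plucking and between 4.93 and 5.95 after it. None of these calls stood when any 1 of the 4 pairs was left out, since 0 genes were then called.

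Whether the plucking difference was itself altered in aged and cKO cells was tested as an interaction over the 8 HFSC arrays. No member and 0% of genes passed (0 of 25438 by limma, with 1147 at an unadjusted p under 0.05, and 0 of 9 members among them). The members' adjusted p was 0.999 throughout. Their median interaction was 0.77, beside 0.04 over all genes, with 6 members above 0 and 3 below it. It was 0.23 with normexp and quantile normalization and 0.32 with the mean of all probes.

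Age changed no member past the threshold in HFSCs, and 0% of genes were called (0 of 25438 by limma, with 1227 at an unadjusted p under 0.05, and 0 of 9 members among them). The 2 pairs compared, aged against young without and after plucking, differed in sign for Itga3, Itgav and Itgb5. Itgb6 was lower in both, by -1.31 and -0.44, with a fitted difference of -0.88 ± 0.43 (SE, n = 2 pairs, adjusted p = 0.932). Itgb8 was higher in both, by 0.47 and 0.75 (fitted 0.61 ± 0.54, adjusted p = 0.937). Itga5 was higher in both, by 0.47 and 1.87, the young plucked array being dim.

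Itga3, the laminin receptor chain, read 0.94 in young and -0.81 in aged HFSCs without plucking, but 0.54 and 0.86 after it, so that the age difference changed sign between the pairs. Itgav, Itgb1 and Itgb5 had fitted age differences of -0.20 ± 0.40, -0.33 ± 0.33 and -0.01 ± 0.46. The members' median was -0.20, beside 0.03 over all genes. Of 8 members measured in the unplucked pair, 2 differed by 2-fold or more (Itga3 and Itgb6, both lower in aged cells), where 30% of genes did. In the plucked pair it was 2 of 9 (Itga5 higher and Itga8 lower) and 20% of genes.

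In epidermis, aged against young also called no member and 0% of genes (0 of 22833 by limma, with 1490 at an unadjusted p under 0.05, and 0 of 7 members among them). The largest member difference was that of Itga3, at -0.61 ± 0.31 (SE, n = 2 pairs, adjusted p = 0.787), from -0.20 in total epidermis and -1.01 in IFE. Among members measured on both arrays of a pair or on 1 of them, 0 of 7 differed by 2-fold or more in total epidermis and 1 of 6 in IFE, beside 12.1% of genes in each pair.

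In cells labelled cKO against the tamoxifen-treated control, no member and 0% of genes were called (0 of 25438 by limma, with 1646 at an unadjusted p under 0.05). Itga2 had an unadjusted p under 0.05. Itga5 and Itga8 did as well, but each was measured on only 1 of these 4 arrays, and their p is not counted. That array was the unplucked cKO one for Itga5 and the plucked cKO one for Itga8. Itga2 was higher in both cKO arrays, by 1.85 without and 1.23 after plucking, and the fitted difference was 1.54 ± 0.42 (SE, n = 2 pairs, adjusted p = 0.673). Itga3 was lower in both, at 2.18 in control and -0.32 in cKO cells without plucking and at -0.00 and -1.51 after it (-2.004 ± 0.93, adjusted p = 0.786). For Itga5 the unplucked control array was dim, and the unplucked cKO array was at least 8.60-fold brighter, at a level of -0.75, the highest of its 12. For Itga8 the plucked cKO array was at least 7.55-fold brighter than the plucked control array.

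At the probes used, the unplucked cKO array differed from its control by 2-fold or more in 7 of 8 members. Itga2, Itga5 and Itgb5 were higher and Itga3, Itgav, Itgb6 and Itgb8 lower. Across all genes 38.5% differed as much in that pair, which holds the 2 arrays least like the rest. In the plucked pair 3 of 8 members did, and 23.6% of genes. There Itgb8 differed by 0.98, Itgb5 by 0.01, Itgav by -0.10 and Itgb6 by -0.28. At the second Itgb6 probe the unplucked cKO array was higher, at -0.81 beside -4.79 in its control, which was not well above background. Itgb1 differed by 0.23 and 0.17 in the unplucked and plucked pairs. Itgav, at 3.10, was highest in the unplucked control and lay between 1.74 and 2.39 on the other 11 arrays.

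Control against young HFSCs differ in tamoxifen, age and slide. No member and 0% of genes were called (0 of 25438 by limma, with 2220 at an unadjusted p under 0.05). Itga2 was the 1 member with an unadjusted p under 0.05, lower in the control by 0.80 and 1.34 on the log2 scale in the 2 pairs, which the fit gave as -1.07 ± 0.42 (SE, n = 2 pairs, adjusted p = 0.571). Of 8 members measured, 2 differed by 2-fold or more in the unplucked pair (Itga3 and Itga5) and 2 in the plucked pair (Itga2 and Itga8), beside 40.4% and 22.8% of genes. This comparison and that of cKO with control share the control arrays.

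**Figure D5:**
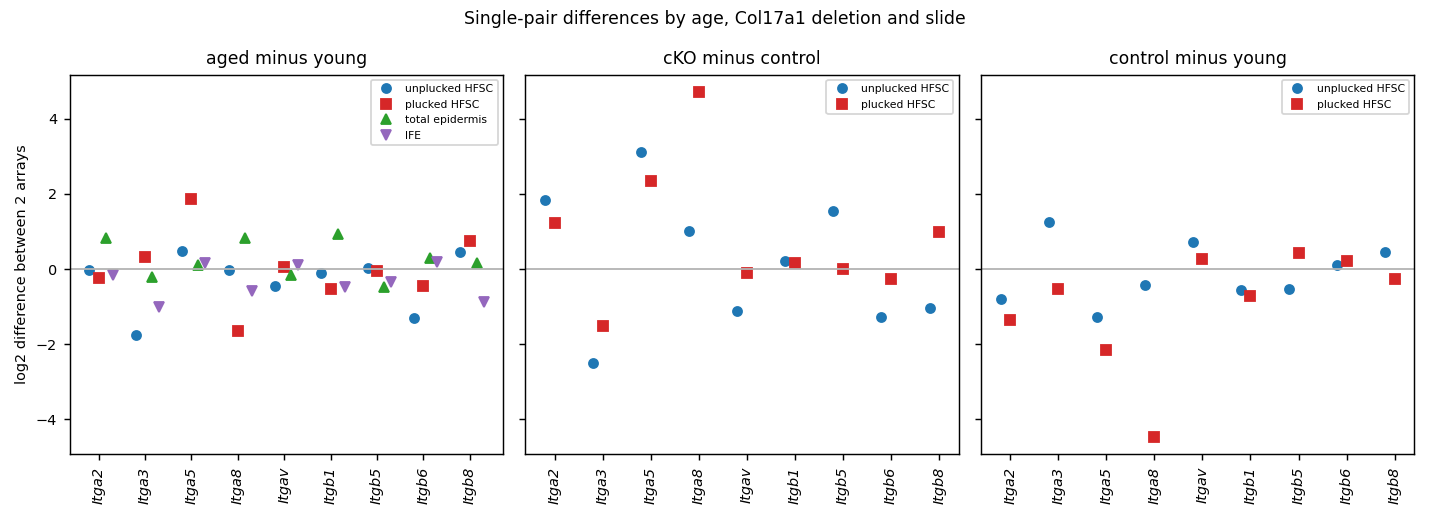
Log2 difference between 2 arrays for 9 integrins: aged minus young (left; HFSCs, total epidermis and IFE), cKO minus control (middle) and control minus young (right), with 1 point per pair of arrays and no error, since each group has 1 array. Itga2 lies above 0 in both cKO pairs and below 0 in both control pairs. Itga5 does so too, but neither array of its plucked pairs in the middle and right panels was well above background. Itga8, which was not well above background on most arrays, has the largest plucked differences in the middle and right panels.

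The genes whose pattern was most like that of a member were sought among 22331 genes well above background on 6 or more arrays, by Pearson's r over the 12 arrays. For Itgb8 they were Acot7 (r = 0.99), Fzd7 (r = 0.97) and Lgr5 (r = 0.97). Lgr5 encodes the R-spondin receptor that marks HFSCs, and Fzd7 a Wnt receptor. Over the 8 HFSC arrays alone the r of Itgb8 with Lgr5 was -0.10 and with Fzd7 -0.12, so that the likeness lay in the split of HFSCs from epidermis, while with Acot7 it was 0.89. For Itgb6 they were Maged1 (r = 0.98, and 0.91 over the HFSC arrays), Akr1a1 and Gstm2 (both r = 0.97).

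For Itga2 the nearest were Slc25a38 (r = 0.95) and Prag1 (r = 0.91), followed by an unnamed intergenic transcript. For Itga3 they were Zfp983 (r = 0.93), Pgap2 (r = 0.92) and Skap2 (r = 0.92), and for Itgb5 Ammecr1, Zcchc3 (both r = 0.96) and Faap20 (r = 0.93). For Itgav they were Klhl36 (r = 0.96), an unnamed intergenic transcript and Ttc28 (r = 0.93). Itgb1 reached at most 0.82. Among the members themselves, the closest pair was Itgb6 and Itgb8 (r = 0.84 over the 12 arrays and 0.19 over the 8 HFSC arrays), and Itga2 and Itgb6 were inversely related among HFSC arrays (r = -0.76). These values describe the arrays, which share slides and populations, and carry no test.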

How the data were processed

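Agilent 1-colour arrays of 12 mouse samples, 1 per group, were used as deposited. The intensities are the authors' Feature Extraction 10.7.3.1 output, per the file headers: background-subtracted, detrended processed signals on an mm9 design. The deposited log2 value table, used as an alternative, holds values centred per probe; it matched the scanner levels (r over 0.99), and its making is not given in the sources used here. Outlier spots and controls were left out, spots of a probe averaged, and each array scaled to its 75th percentile. limma 3.58.1 (R 4.3.3) fitted HFSC arrays by mouse and plucking, population arrays by population and age, and epidermal arrays by population and age, with Benjamini-Hochberg adjustment over all genes well above background on 2 or more arrays. Single arrays differed when 2-fold apart with the brighter one well above background. All members are named; of the lists, genes past the threshold or at most 3 per comparison; and the 3 genes most alike. Members and lists were chosen with earlier results of these data known. The fits were tested on simulated data. Precision is limited by 1 array per group.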

Additional observations from a re-analysis of the deposited data

Results flagged for a closer look

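For Itgb6, at the probe used, the aged minus young difference of single arrays had opposite signs in follicle stem cells and epidermis, with each array well above background. Neither age difference passed the test (limma adjusted p = 0.932 in HFSCs and 0.852 in epidermis). Aged minus young, it differed by -1.31 in unplucked HFSCs and by -0.44 in plucked HFSCs, and by 0.30 in total epidermis and 0.20 in IFE. The difference between these sets of pairs was not tested, and the second Itgb6 probe gave a negative epidermal difference (-0.86 with the mean of both probes).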

How the results depend on the processing

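No paired analysis by replicate number was possible because each group has 1 array. Itgb8 in IFE kept its call under all 6 alternatives that tested it (adjusted p from 0.00452 to 0.0224). For Itga5 the call was lost with normexp and quantile normalization (-0.46 in IFE, -0.58 in total epidermis) and with a trended, robust prior (adjusted p of 0.0818 and 0.0733). Itgb6 in IFE passed with normexp (adjusted p of 0.0445), the mean of all probes (0.0292), the trended prior (0.0297) and genes well above background on every array (0.0265). Array-median scaling shifted the median of all genes to -0.21 in aged against young HFSCs, 0.21 in control against young and 0.23 in the interaction.

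Counts of genes called moved as follows. In IFE against HFSCs, 1135 became 604 with no filter and 1771 with the trended prior. In total epidermis against HFSCs, 934 became 328 with no filter, 1420 with normexp and 1618 with the trended prior. After plucking, 127 became 22 with no filter, 273 with the mean of all probes, 1140 with normexp, 703 for genes well above background on every array and 863 with the trended prior. It became 0 on slide 1 alone, 0 on slide 2 alone, and 0 (from 0 to 0) without any 1 pair. In IFE against total epidermis, 0 became 3 with normexp, 5 with the mean of all probes, 1 with every array well above background and 28 with the trended prior. In aged against young epidermis 0 became 13 with the trended prior.

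Differences that missed the threshold and changed sign follow, and the cause was not tested. Without 1 pair at a time, plucking differences ran from -1.26 to 0.026 for Itga3, from -0.029 to 0.48 for Itgb5 and from -0.042 to 0.63 for Itgb8; the sign changed without the control pair for Itga3 and Itgb5 and without the cKO pair for Itgb8. On slide 1 alone Itga3 was 0.64. With normexp the differences were 0.012 for Itgb8 (cKO), 0.0085 for Itgb8 (aged epidermis), 0.015 for Itgb5 and -0.022 for Itgb6 (control against young), and -0.30 for Itga5 (interaction). With the array median they were 0.14 for Itgb5 (control against young) and -0.068 for Itga3 (total epidermis). With the mean of all probes, Itgb6 was 0.62 (cKO), -1.69 (control against young), -0.16 (interaction) and -0.86 (aged epidermis).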
